A study of Drosophila melanogaster with 8 samples.

Results

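The 26S proteasome is measured here through the transcripts of 32 subunit genes in the heads of adult Drosophila melanogaster with a knockdown of FBXO11 in neurons. The members were chosen by name: 14 genes of the core (Prosalpha1 to Prosalpha7 and Prosbeta1 to Prosbeta7), 10 of the base (Rpt1 to Rpt6, Rpn1, Rpn2, Rpn10 and Rpn13) and 8 of the lid (Rpn3, Rpn5 to Rpn9, Rpn11 and Rpn12). They are 32 of 17676 genes in the deposited count table, matched by gene identifier. Prosalpha1 was listed at 0 in all 8 libraries, which leaves 31 subunits with reads, and all 31 passed the low-count filter among 11081 genes tested.

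The 8 libraries are of whole adult heads and fall into 3 groups by title. The RNA1 heads (3 libraries, genotype label FBXO11 KD1) and the RNA2 heads (2 libraries) carry a neuronal FBXO11 knockdown, and the control heads (3 libraries) have the genotype label FBXO11 WT. The titles put both RNA2 libraries in one group, but the genotype labels read FBXO11 KD2 for replicate 1 and FBXO11 KD3 for replicate 2, so a difference between those genotypes cannot be told apart from a difference between these libraries. The control titles also carry the words for the neuronal knockdown, and the driver, the RNAi constructs, any agent or allele the controls share with the knockdowns, the age and sex of the flies and the number of heads per library were not given in the sources used here. No label says that replicates are separate pools of flies, so p-values measure the spread between these libraries, which may be technical.

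FBXO11 is an F-box protein, the part of a ubiquitin ligase that picks the proteins to be tagged, and the proteasome is the protease that destroys tagged proteins. Its core is a barrel of alpha and beta rings with the cutting sites of 3 beta subunits on the inside. The base caps the barrel with a ring of ATPases that unfold the substrate and holds ubiquitin receptors, and the lid removes the ubiquitin chain before the substrate enters. The series title names proteasome activation as the subject of the study, and the comparisons here ask whether the subunit transcripts differed between knockdown and control heads.

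No subunit transcript passed edgeR's quasi-likelihood test in any comparison. Of all genes tested, it called 10.3% in RNA1 heads, 3.78% in RNA2 heads and 10.1% over both knockdowns relative to control heads. In RNA2 relative to RNA1 heads it called 0.28%. DESeq2, run as an alternative, called 3 of 31 in RNA2 heads, all of them lower. Of all genes it called 8.21% there, counting both directions. All 31 had lower estimates in RNA1 and in RNA2 heads than in control heads, against 48.6% and 48.2% of all genes. The median fold change over the 31 subunits was log2 -0.21 in RNA1 heads and -0.56 in RNA2 heads relative to control heads, against medians of 0.007 and 0.010 over all genes tested. The subunits moved together from library to library. RNA2 replicate 1 was the lowest of the 8 libraries for all 31 (16.4% of all genes). With it, RNA1 replicate 2 was the second lowest for all 31 (4.39% of all genes). Control replicate 2 was the highest for 30 (13.4% of all genes). Because the tissue is bulk, fewer cells of a type and less RNA per cell cannot be told apart in any of these values.

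Depth was 32434805 to 41589222 counts per library, and the tested subunits had 1681 to 19333 counts in a library. Levels are given as CPM, counts per 1000000 counts of a library after scaling by trimmed mean of M values (TMM). FBXO11 itself had 39.7, 42.5 and 37.4 CPM in RNA1 heads and 44.8 and 52.7 CPM in RNA2 heads, against 108, 103 and 97.4 CPM in control heads. All 5 knockdown libraries lay below all 3 control libraries, and FBXO11 fell by log2 1.37 ± 0.09 in RNA1 heads and by 1.08 ± 0.10 in RNA2 heads (SE; edgeR's quasi-likelihood test, adjusted p = 4.90e-05 and 5.39e-04). Markers of neurons (6 genes, among them elav and nSyb) and of photoreceptors (6 genes, among them ninaE and norpA) were all detected in every library, as the head label implies. The neuronal markers summed to 4511 to 5599.6 CPM in RNA1 heads and 4939.9 to 5295 CPM in RNA2 heads, against 5158 to 5749.9 CPM in control heads. The 4 hemocyte markers, which mark blood cells (Hml, NimC1, eater and Sr-CI), summed to 101 to 178 CPM in RNA1 heads and 120.4 to 146 CPM in RNA2 heads, against 52.2 to 68.3 CPM in control heads, and 4 of 4 rose in RNA1 heads and 2 of 4 in RNA2 heads by edgeR's quasi-likelihood test, where 5.01% and 1.76% of all genes rose. None of the 4 was at 0.

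Genes on other marker lists were called as well. The 6 glial markers (among them repo and moody) summed to 2117 to 2308 CPM in RNA1 heads and 1925 to 2177 CPM in RNA2 heads, against 2256 to 2399 CPM in control heads, and 1 of 6 fell in RNA1 heads (wrapper) and 2 of 6 in RNA2 heads (wrapper and alrm), where 5.25% and 2.02% of all genes fell. The 6 fat body markers summed to 2510.1 to 3886 CPM in RNA1 heads and 2843 to 4069.5 CPM in RNA2 heads, against 2415 to 2920.0 CPM in control heads, with 2 of 6 higher and 1 lower in RNA1 heads and 1 higher and 1 lower in RNA2 heads. The 5 tested markers of the digestive tract summed to 54.4 to 183 CPM in RNA1 heads and 80.9 to 173 CPM in RNA2 heads, against 16.2 to 27.1 CPM in control heads, and 2 of 5 rose in RNA1 heads and 1 of 5 in RNA2 heads. Nearly all of that sum in control heads was Amy-p and Amy-d, near-identical amylase genes between which reads may be split, while alphaTry and betaTry were at 0 in all control libraries. The 3 tested ovary markers summed to 43.5 to 56.2 CPM in RNA1 heads and 39.97 to 48.3 CPM in RNA2 heads, against 54.3 to 63.1 CPM in control heads. Of these, 1 of 3 was called lower in each knockdown. Their estimates ran from log2 -3.81 to -0.07 in RNA1 heads and from -3.25 to -0.24 in RNA2 heads, a range that the sum does not show. Of 6 muscle markers, 1 rose in each knockdown (Act88F), and none of the neuronal, photoreceptor or 2 tested testis markers was called. RNA2 replicate 1, where the subunits were lowest, had the lowest glial and ovary sums and the highest fat body and photoreceptor sums of the 8 libraries. The part of these cell types in the subunit values was not tested.

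The subunits were expressed at like levels in heads. Per kilobase of exon, the 31 genes had 79.7 (Rpn13) to 151.9 CPM (Prosalpha5) in RNA1 heads, 60.9 (Rpn13) to 127 CPM (Prosalpha2) in RNA2 heads and 97.4 (Rpn12) to 169.9 CPM (Rpn6) in control heads. The highest was 1.91 times the lowest in RNA1 heads, 2.08 times in RNA2 heads and 1.74 times in control heads. Median levels per kilobase in control heads were 127 CPM for the core, 123 CPM for the base and 129 CPM for the lid. Neighbours in this order differ by less than the spread between libraries, so no order among the 31 is read from them. Exon lengths ran from 815 bases (Prosbeta4) to 3412 bases (Rpn2).

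Prosalpha1, an alpha-ring subunit on the right arm of chromosome 2, was listed at 0 in every library. Prosalpha1R, a copy of it, was also listed at 0 in every library. As the alpha ring needs this subunit, the 0 is not read as absence. The other 15 copies on the list of germline-type subunit genes were low: 13 did not pass the low-count filter, Rpt3R had 2.00, 1.22 and 1.31 CPM in RNA1 heads and 1.03 and 1.62 CPM in RNA2 heads, against 0.756, 1.34 and 0.709 CPM in control heads, and Rpt6R had 22.5, 11.1 and 19.0 CPM in RNA1 heads and 2.28 and 14.3 CPM in RNA2 heads, against 20.1, 20.2 and 13.5 CPM in control heads. Rpt6R was thus lowest in RNA2 replicate 1. None of the 32 subunit genes shares bases with a gene on the same strand in the gene models, and 13 share 1 to 182 bases with a gene on the opposite strand.

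**Figure D1:**
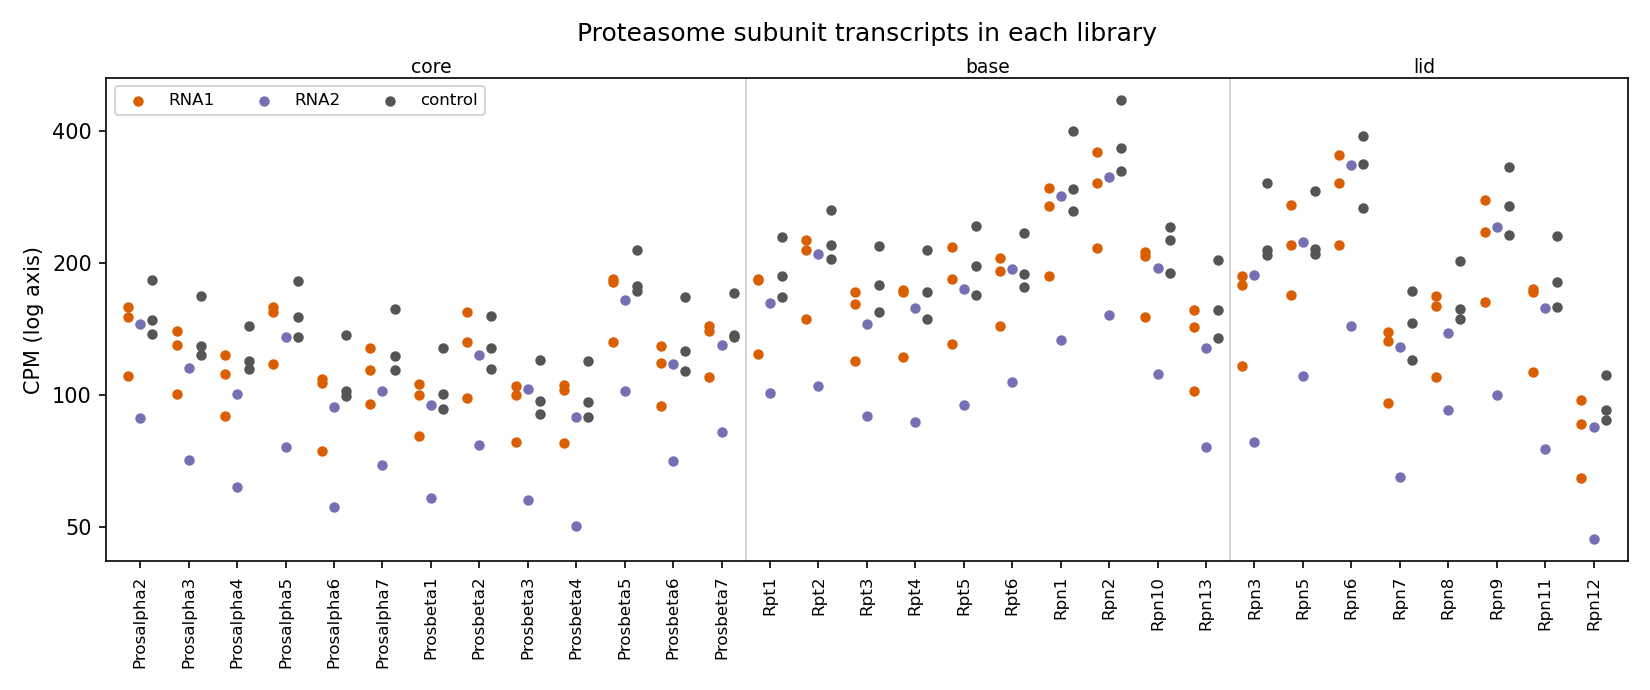
Level of each of the 31 subunits with reads in each library. The y axis is CPM on a log axis, and each point is a library of RNA1 heads (orange), RNA2 heads (violet) or control heads (grey). For every subunit the lower RNA2 point is replicate 1, and the highest point is control replicate 2 except for Prosbeta2.

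The 3 catalytic subunits of the core carry the cutting sites. Prosbeta5, the chymotrypsin-like subunit, had 180.4, 132 and 183 CPM in RNA1 heads and 102 and 164 CPM in RNA2 heads, against 173, 214 and 176 CPM in control heads. Both RNA2 libraries lay below all 3 control libraries, and the RNA1 libraries overlapped them. Prosbeta1, the caspase-like subunit, had 99.98, 80.6 and 106 CPM in RNA1 heads and 58.1 and 94.5 CPM in RNA2 heads, against 100.34, 127 and 92.6 CPM in control heads. Prosbeta2, the trypsin-like subunit, had 154, 98.0 and 132 CPM in RNA1 heads and 76.6 and 123 CPM in RNA2 heads, against 128, 151 and 115 CPM in control heads. For Prosbeta1 and Prosbeta2 the groups overlapped, and Prosbeta2 was the only subunit whose highest library was a knockdown library, RNA1 replicate 1. In RNA1 heads relative to control heads the estimates were log2 -0.18 ± 0.20 for Prosbeta5, -0.16 ± 0.21 for Prosbeta1 and -0.03 ± 0.23 for Prosbeta2 (SE). In RNA2 heads relative to control heads they were log2 -0.50 ± 0.23, -0.49 ± 0.23 and -0.39 ± 0.26 in the same order, with adjusted p-values of 0.299, 0.321 and 0.461 by edgeR's quasi-likelihood test.

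Among the structural core subunits, Prosalpha4 had the lowest core estimate in RNA2 heads. Prosalpha4 (FBgn0004066; BDGP6 chromosome X, 16276270 to 16277587, plus strand) had 111, 89.4 and 123 CPM in RNA1 heads and 61.5 and 100.48 CPM in RNA2 heads, against 119, 143 and 114 CPM in control heads. Both RNA2 libraries were below all 3 control libraries, and its estimate there was log2 -0.63 ± 0.23 (SE; edgeR's quasi-likelihood test, unadjusted p = 0.0246, adjusted p = 0.191). Prosalpha7 had 114, 95.1 and 127 CPM in RNA1 heads and 69.0 and 102 CPM in RNA2 heads, against 122, 157 and 114 CPM in control heads, and its estimate in RNA2 heads was log2 -0.62 ± 0.21, with the smallest p of the 31 (edgeR's quasi-likelihood test, unadjusted p = 0.0195, adjusted p = 0.173). Its RNA2 libraries were likewise below all controls, while RNA1 replicate 3 lay within the control range.

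Beta-ring genes filled the other ends of the core's range. Prosbeta3 had 99.87, 77.7 and 105 CPM in RNA1 heads and 57.3 and 103 CPM in RNA2 heads, against 96.7, 119.8 and 90.3 CPM in control heads, and its estimate in RNA2 heads, log2 -0.35 ± 0.26, was the nearest to 0 of the 31. Prosbeta4 had 105, 77.6 and 103 CPM in RNA1 heads and 50.1 and 89.0 CPM in RNA2 heads, against 96.1, 119 and 88.9 CPM in control heads. Its estimate of log2 -0.45 ± 0.26 in RNA2 heads relative to RNA1 heads was the lowest of the 31 in that comparison. Prosbeta6 had 118, 94.3 and 129 CPM in RNA1 heads and 70.7 and 117 CPM in RNA2 heads, against 126, 167 and 113 CPM in control heads, with the lowest core estimate in RNA1 heads, log2 -0.25 ± 0.23. The groups overlapped for all 3 of these genes. The 5 core genes not yet given (Prosalpha2, Prosalpha3, Prosalpha5, Prosalpha6 and Prosbeta7) had mean levels of 96.3 to 144 CPM in RNA1 heads, 74.5 to 117 CPM in RNA2 heads and 113 to 156 CPM in control heads.

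The base ATPases Rpt1 to Rpt6 form the ring that unfolds substrates, and their transcripts kept the same order of libraries. Rpt1 had 183, 124 and 183 CPM in RNA1 heads and 101 and 162 CPM in RNA2 heads, against 187, 228 and 167 CPM in control heads. Rpt2 had 226, 149 and 214 CPM in RNA1 heads and 105 and 209 CPM in RNA2 heads, against 219, 264 and 204 CPM in control heads. Rpt3 (FBgn0028686; chromosome X, 11125101 to 11126785, plus strand) had 161, 119.5 and 171 CPM in RNA1 heads and 89.5 and 145 CPM in RNA2 heads, against 177, 218 and 154 CPM in control heads. For Rpt1 and Rpt3 both RNA2 libraries were below every control library, and for Rpt2 RNA2 replicate 2 lay among the controls. Rpt4 had 173, 122 and 171 CPM in RNA1 heads and 86.6 and 158 CPM in RNA2 heads, against 171, 214 and 149 CPM in control heads. Rpt5 had 218, 131 and 184 CPM in RNA1 heads and 94.5 and 174 CPM in RNA2 heads, against 196, 242 and 169 CPM in control heads. Rpt6 had 205, 143 and 191 CPM in RNA1 heads and 107 and 194 CPM in RNA2 heads, against 189, 234 and 176 CPM in control heads. In all 3 genes RNA2 replicate 2 lay above at least control replicate 3, so the groups overlapped.

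In RNA1 heads relative to control heads the ATPase estimates ran from log2 -0.28 ± 0.22 (Rpt3) to -0.15 ± 0.24 (Rpt6). In RNA2 heads they ran from log2 -0.64 ± 0.25 (Rpt3) to -0.41 ± 0.27 (Rpt6). Rpt3 was the only base gene with an unadjusted p under 0.05 in RNA2 heads (edgeR's quasi-likelihood test, unadjusted p = 0.038, adjusted p = 0.235). Rpt5 had the lowest base estimate in RNA2 heads relative to RNA1 heads, log2 -0.40 ± 0.32.

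The ubiquitin receptors and scaffolds of the base showed the same libraries at the ends. Rpn10, a ubiquitin receptor, had 207, 150.1 and 211 CPM in RNA1 heads and 111 and 194 CPM in RNA2 heads, against 225, 241 and 189.5 CPM in control heads. Rpn13, the other dedicated receptor, had 142, 102 and 156 CPM in RNA1 heads and 75.9 and 128 CPM in RNA2 heads, against 156, 202 and 135 CPM in control heads. Rpn1, a scaffold that also binds ubiquitin and shuttle factors, had 295, 187 and 269.9 CPM in RNA1 heads and 133 and 283 CPM in RNA2 heads, against 294, 399.6 and 263 CPM in control heads. Both RNA2 libraries were below all controls for Rpn13, and the groups overlapped for Rpn10 and Rpn1. Rpn2, the other large scaffold, had 358, 216 and 304 CPM in RNA1 heads and 152 and 314 CPM in RNA2 heads, against 365, 469.8 and 323 CPM in control heads. Its RNA2 libraries were below all controls by a margin of under 10 CPM for replicate 2, and it had the lowest base estimate in both knockdowns, log2 -0.40 ± 0.31 in RNA1 heads and -0.73 ± 0.36 in RNA2 heads relative to control heads (SE; edgeR's quasi-likelihood test, adjusted p = 0.466 and 0.333).

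In the lid, Rpn11 is the deubiquitinase that cuts the ubiquitin chain from the substrate. It had 174, 113 and 171 CPM in RNA1 heads and 75.2 and 157 CPM in RNA2 heads, against 181, 230.4 and 158 CPM in control heads. RNA1 replicates 1 and 3 lay within the control range, and RNA2 replicate 2 lay just under the lowest control. Its estimate was log2 -0.32 ± 0.31 in RNA1 heads and -0.71 ± 0.36 in RNA2 heads relative to control heads (SE; edgeR's quasi-likelihood test, adjusted p = 0.568 and 0.348).

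Rpn3, a scaffold subunit of the lid, stood lowest of the 31 in both knockdowns. Rpn3 (FBgn0261396; chromosome 2L, 19051790 to 19053681, plus strand) had 186, 116 and 178 CPM in RNA1 heads and 77.8 and 188 CPM in RNA2 heads, against 214, 303 and 208 CPM in control heads. It was the only subunit with all 5 knockdown libraries below all 3 control libraries, which held for 10.7% of all genes tested. Its estimate was log2 -0.59 ± 0.36 in RNA1 heads, -0.86 ± 0.42 in RNA2 heads and -0.73 ± 0.32 over both knockdowns relative to control heads (SE; edgeR's quasi-likelihood test, adjusted p = 0.353, 0.331 and 0.213). In RNA2 heads relative to RNA1 heads it was -0.27 ± 0.41, the lid estimate nearest to 0.

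The other scaffold genes of the lid did not stand apart in this way. Rpn5 had 271, 169 and 219 CPM in RNA1 heads and 110.1 and 223 CPM in RNA2 heads, against 214, 291 and 209 CPM in control heads, with an estimate of log2 -0.12 ± 0.30 in RNA1 heads, the lid estimate nearest to 0 there. Rpn6 had 351, 219 and 304 CPM in RNA1 heads and 143 and 333 CPM in RNA2 heads, against 336, 389 and 267 CPM in control heads, with log2 -0.47 ± 0.38 in RNA2 heads, the lid estimate nearest to 0 there. Rpn9 had 278, 163 and 235 CPM in RNA1 heads and 99.59 and 241 CPM in RNA2 heads, against 269.5, 329.9 and 231 CPM in control heads, with the lowest lid estimate in RNA2 heads relative to RNA1 heads, log2 -0.40 ± 0.40. For each of the 3, RNA2 replicate 1 was far below the other libraries and RNA2 replicate 2 lay among the controls. Rpn7, Rpn8 and Rpn12 had mean levels of 82.6 to 146 CPM in RNA1 heads, 65.6 to 115 CPM in RNA2 heads and 96.9 to 169 CPM in control heads, and both RNA2 libraries were below all controls for Rpn8 and Rpn12.

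**Figure D2:**
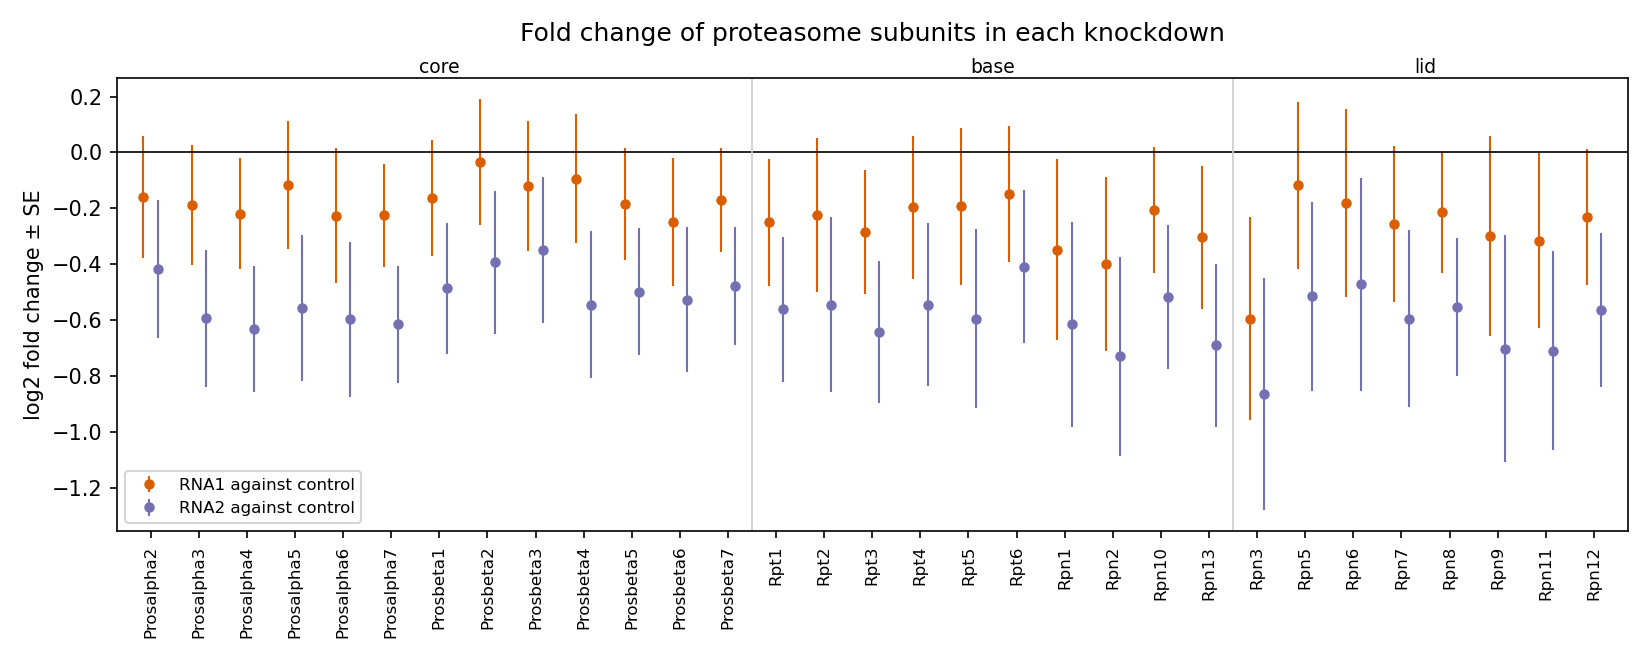
Log2 fold change of each subunit in RNA1 heads (orange) and RNA2 heads (violet) relative to control heads, with the SE as the bar, by core, base and lid. All 62 estimates lie below 0, and the lowest in each knockdown is Rpn3.

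Set against control heads, RNA1 heads had 0 of 31 subunits called at an adjusted p under 0.05 by edgeR's quasi-likelihood test, against 10.3% of all genes tested. DESeq2 and limma-voom called 0 as well (14.8% and 10.3% of all genes). At an unadjusted p under 0.05 the count was also 0 of 31 by edgeR, DESeq2 and limma-voom, against 26.7%, 26.5% and 27.0% of all genes. All 31 estimates were below 0, as were 48.6% over all genes, and since the 31 moved together by library this count is not 31 separate observations. The medians were log2 -0.17 for the core, -0.24 for the base and -0.24 for the lid. Every RNA1 library was below every control library for 1 of 31 subunits (Rpn3), against 16.6% of all genes. The median over the 31 was log2 -0.06 without RNA1 replicate 2 and -0.07 without control replicate 2, and 26 of 31 estimates were below 0 in either case, against 48.4% and 48.7% of all genes.

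RNA2 heads had 0 of 31 subunits called against control heads by edgeR's quasi-likelihood test, where 3.78% of all genes were. At an unadjusted p under 0.05 there were 4 of 31 by edgeR (18.4% of all genes), namely Prosalpha3, Prosalpha4, Prosalpha7 and Rpt3. DESeq2 called 3 of 31 at an adjusted p under 0.05 (8.21% of all genes), namely Prosalpha4, Prosalpha7 and Rpt3, and limma-voom called 0 (3.74%). At an unadjusted p under 0.05, DESeq2 gave 21 of 31 (19.0% of all genes) and limma-voom 22 of 31 (19.1%). All 31 estimates were below 0 (48.2% of all genes), with medians of log2 -0.53 for the core, -0.58 for the base and -0.58 for the lid. Both RNA2 libraries were below every control library for 14 of 31 subunits, against 18.5% of all genes tested. By part this was 6 of 13 in the core, 4 of 10 in the base and 4 of 8 in the lid. Since the subunits moved together by library, the counts here and in the next comparisons are not of 31 separate observations.

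The RNA2 values depended on which library was kept. Replicate 1 is labelled FBXO11 KD2 and replicate 2 FBXO11 KD3, so genotype and library cannot be told apart here. Without RNA2 replicate 1 the median over the 31 was log2 -0.20, 29 of 31 estimates were below 0 (50.6% of all genes) and 0 were called (0.488% of all genes called lower). Without RNA2 replicate 2 the median was log2 -1.04 and 8 of 31 were called lower, against 3.13% of all genes: Prosalpha4, Prosalpha5, Prosbeta4, Prosbeta7, Rpt2, Rpn10, Rpn3 and Rpn12. Either fit leaves a lone RNA2 library, which is assumed to vary like the other groups.

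With both knockdowns set against control heads together, edgeR's quasi-likelihood test called 0 of 31 subunits (10.1% of all genes), with 2 of 31 at an unadjusted p under 0.05 (26.4% of all genes), Prosalpha4 and Prosalpha7. DESeq2 and limma-voom also called 0 of 31 there (14.9% and 10% of all genes), with 15 and 6 of 31 at an unadjusted p under 0.05 (26.5% and 27.0% of all genes). The median was log2 -0.39. Without RNA2 replicate 2, 14 of 31 were called lower (6.47% of all genes), and without RNA2 replicate 1 none were called (3.4% of all genes). These comparisons share the 3 control libraries, so their values are given side by side and not as independent evidence.

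RNA2 heads relative to RNA1 heads had 0 of 31 subunits called by edgeR's quasi-likelihood test, where 0.28% of all genes were, and 0 of 31 at an unadjusted p under 0.05 (7.66% of all genes). DESeq2 and limma-voom called 0 as well (1.33% and 0.253% of all genes), with 1 and 0 of 31 at an unadjusted p under 0.05 (7.31% and 7.79% of all genes). All 31 estimates were below 0 (51.8% of all genes), with a median of log2 -0.34. Without RNA2 replicate 1 the median was log2 0.02 and 15 of 31 were below 0 (52.7% of all genes).

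These transcripts varied between libraries of the same title group. For RNA2 this variation includes any difference between the genotypes, since its libraries differ in genotype label. As log2 CPM minus the control mean, the subunit median was -0.07, -0.53 and -0.05 in RNA1 replicates 1, 2 and 3, -1.02 and -0.19 in RNA2 replicates 1 and 2, and -0.07, 0.27 and -0.19 in control replicates 1, 2 and 3. The 31 subunits summed to 5481, 3749 and 5268 CPM in RNA1 heads and to 2683 and 4966 CPM in RNA2 heads, against 5415, 6775 and 4892 CPM in control heads. The pooled within-group SD of log2 CPM had a median of 0.33 over the subunits (0.27 to 0.50) and of 0.15 over all genes tested. It includes the difference between the RNA2 libraries, as does the spread used by edgeR's quasi-likelihood test. Control replicate 2 was the highest of the 8 libraries for 30 of 31 subunits, against 13.4% of all genes. RNA2 replicate 1 was the lowest for 31 of 31 (16.4% of all genes), and with it RNA1 replicate 2 the second lowest for 31 of 31 (4.39% of all genes). All 3 places together held for 30 of 31 subunits and for 2.53% of all genes, which is 280 genes, 250 of them no subunits. Across libraries, deviations from the group means correlated between subunits with a median Pearson r of 0.976 and a lowest of 0.883 over 465 pairs, given as a description, since all pairs share the same 8 libraries.

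**Figure D3:**
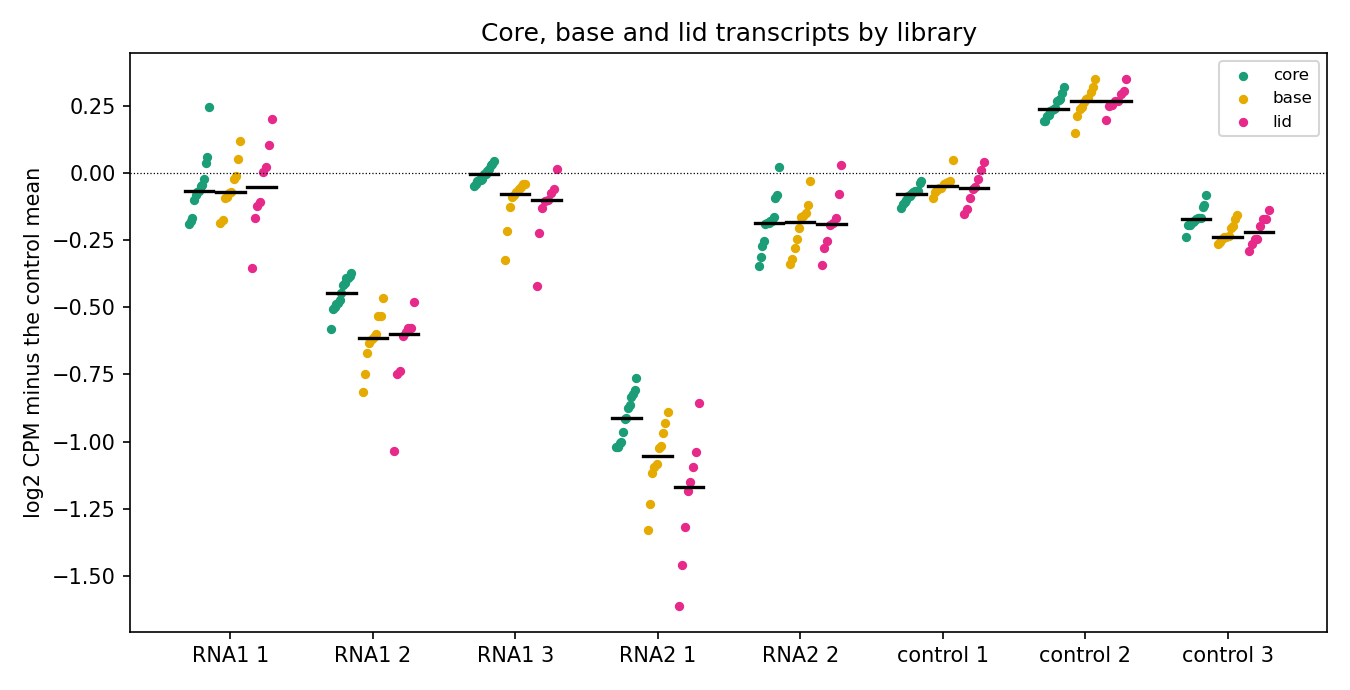
Log2 CPM of each subunit minus its mean over the control libraries, by library, for core (green), base (yellow) and lid (pink). Each point is a subunit and each black line a median; RNA2 replicate 1 is lowest, followed by RNA1 replicate 2, and control replicate 2 is highest.

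By part of the proteasome, the median in RNA2 replicate 1 was -0.91 for the core, -1.05 for the base and -1.17 for the lid (log2 CPM minus the control mean), and in RNA1 replicate 2 it was -0.45, -0.61 and -0.60 in the same order. The lid median minus the core median was 0.02, -0.15 and -0.10 in RNA1 replicates 1, 2 and 3 and -0.26 and -0.0024 in RNA2 replicates 1 and 2, against 0.02, 0.03 and -0.05 in control replicates 1, 2 and 3. The gap was thus widest in the library with the lowest subunit levels, and RNA1 replicate 1 and RNA2 replicate 2 lay within the control range. RNA2 replicate 1 was lower than RNA2 replicate 2 for every subunit: replicate 2 had 1.77 times the CPM of replicate 1 at the median, 1.63 times for the core, 1.82 times for the base and 2.06 times for the lid. Replicate 2 had at least 1.5 times the CPM of replicate 1 for 29 of 31 subunits, against 9.1% of all genes, with Prosalpha7 (1.48 times) and Rpn8 (1.49 times) below that. The largest ratios were those of Rpn9 (2.42), Rpn3 (2.41) and Rpn6 (2.32). The differences between the 3 parts of the proteasome were not tested.

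The subunits also differ in exon length, within and between the parts. The log2 difference of RNA2 replicate 1 from RNA2 replicate 2 correlated with log2 exon length at r = -0.58 over the 31 subunits and at -0.04 over 11003 genes with a gene model. Within the parts r was 0.44 in the core (13 genes), -0.74 in the base (10 genes) and -0.46 in the lid (8 genes). The points share the same pair of libraries, and the part of length in the difference between core, base and lid was not tested.

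**Figure D4:**
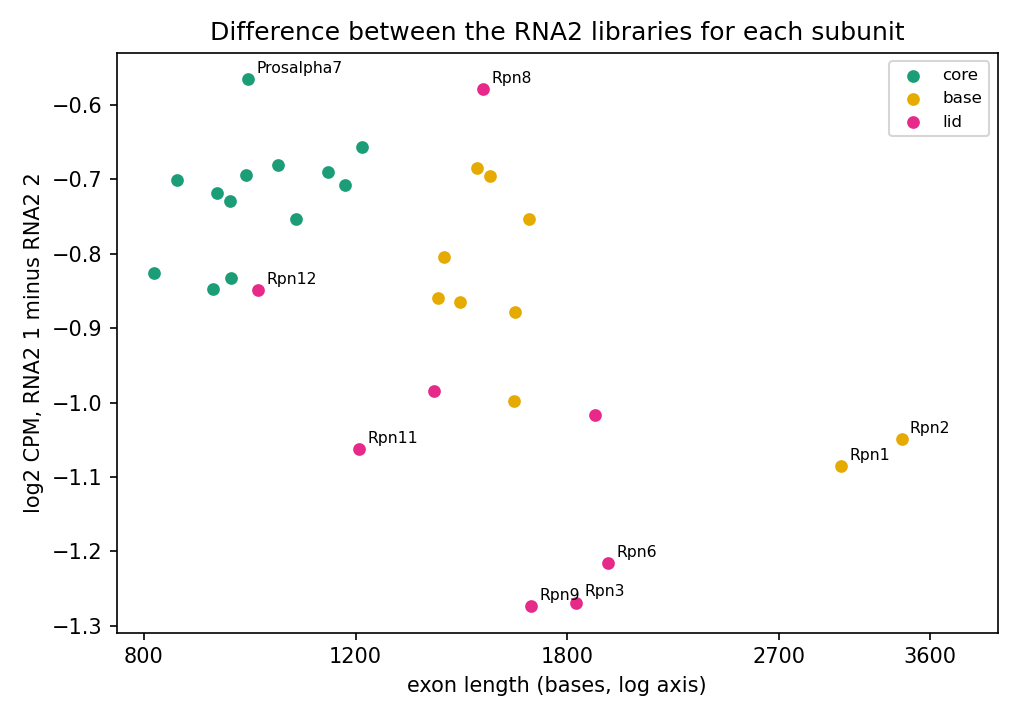
Log2 CPM of RNA2 replicate 1 minus RNA2 replicate 2 (y axis) against exon length in bases (x axis, log) for the 31 subunits. Most core genes (green) are short and lie high, as does the lid gene Rpn8, while the lid genes Rpn9, Rpn3 and Rpn6 (pink) lie lowest, with the longest genes, Rpn1 and Rpn2, close to them.

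Genes that work with the proteasome were examined as lists. Over all genes tested, 5.01% rose and 5.25% fell in RNA1 heads, 1.76% rose and 2.02% fell in RNA2 heads, and 4.44% rose and 5.67% fell over both knockdowns. Of 10 tested genes for activators, assembly factors and associated enzymes, 0 were called in any comparison. Uch-L5, a deubiquitinase bound at Rpn13, had 55.7, 33.4 and 41.4 CPM in RNA1 heads and 17.2 and 47.3 CPM in RNA2 heads, against 46.2, 70.3 and 46.7 CPM in control heads. Usp14, a deubiquitinase bound at Rpn1, had 212, 126 and 173 CPM in RNA1 heads and 75.2 and 168 CPM in RNA2 heads, against 163, 210.2 and 148 CPM in control heads. Sem1, a small lid-associated subunit outside the 32, had 122, 65.2 and 87.5 CPM in RNA1 heads and 39.6 and 80.5 CPM in RNA2 heads, against 76.4, 93.4 and 75.7 CPM in control heads. In all 3 RNA2 replicate 1 was the lowest library and RNA1 replicate 2 the next, as for the subunits. Pomp, a core assembly chaperone, had 71.8, 65.3 and 80.7 CPM in RNA1 heads and 49.9 and 68.5 CPM in RNA2 heads, against 84.7, 93.8 and 75.6 CPM in control heads. The activator REG had 56.6, 62.2 and 59.1 CPM in RNA1 heads and 63.7 and 60.6 CPM in RNA2 heads, against 59.8, 58.4 and 55.8 CPM in control heads, and PI31 had 65.7, 68.5 and 73.5 CPM in RNA1 heads and 70.3 and 64.9 CPM in RNA2 heads, against 64.9, 60.0 and 61.6 CPM in control heads, and neither was low in RNA2 replicate 1.

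The transcription factor cnc is the fly relative of mammalian Nrf1 and Nrf2, and in mammals Nrf1 raises proteasome gene expression when proteasome activity is short. It had 252, 225 and 227 CPM in RNA1 heads and 170.2 and 257 CPM in RNA2 heads, against 263, 336 and 251 CPM in control heads. Its lowest library was RNA2 replicate 1, its second lowest RNA1 replicate 2 and its highest control replicate 2, and it passed no test (log2 -0.27 ± 0.16 in RNA1 heads and -0.41 ± 0.18 in RNA2 heads; edgeR's quasi-likelihood test, adjusted p = 0.326 and 0.285). On this list of 9 regulators, 2 rose and 1 fell in RNA1 heads, 1 rose and 1 fell over both knockdowns and 0 passed in RNA2 heads. The gene maf-S, which encodes the dimer partner of cnc, had 76.3, 66.6 and 64.8 CPM in RNA1 heads and 64.9 and 63.1 CPM in RNA2 heads, against 47.4, 50.3 and 52.1 CPM in control heads. Keap1, which encodes its inhibitor, had 21.5, 22.2 and 20.4 CPM in RNA1 heads and 21.6 and 27.3 CPM in RNA2 heads, against 31.0, 35.2 and 28.4 CPM in control heads. All 5 knockdown libraries were above all controls for maf-S and below them for Keap1. In RNA1 heads maf-S rose by log2 0.47 ± 0.08 and Keap1 fell by 0.56 ± 0.11 (SE; edgeR's quasi-likelihood test, adjusted p = 0.00743 and 0.014), and Hsf, the heat shock factor, rose by 0.23 ± 0.06 (adjusted p = 0.0437).

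Of 12 ubiquitin and shuttle factor genes, 3 rose in RNA1 heads, 0 changed in RNA2 heads and 3 rose over both knockdowns. They were RpS27A and RpL40, which encode ubiquitin fused to a ribosomal protein, and Nedd8, a ubiquitin-like protein. RpS27A had 787, 798 and 748 CPM in RNA1 heads and 789 and 654 CPM in RNA2 heads, against 551, 570.0 and 660.3 CPM in control heads and rose by log2 0.39 ± 0.10 in RNA1 heads (SE; edgeR's quasi-likelihood test, adjusted p = 0.0384). RpL40 rose by 0.35 ± 0.09 and Nedd8 by 0.43 ± 0.09 there (adjusted p = 0.037 and 0.0143). The polyubiquitin genes Ubi-p63E and Ubi-p5E, which encode ubiquitin in repeats, passed no test. Ubi-p63E had 516, 464 and 479 CPM in RNA1 heads and 409.7 and 509 CPM in RNA2 heads, against 514, 554 and 586 CPM in control heads. Its lowest library was RNA2 replicate 1, and its highest was control replicate 3.

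The COP9 signalosome and the translation factor eIF3 are complexes built on the same plan as the lid. None of their 8 and 13 genes, nor of 8 genes of the folding complex CCT, had the order of libraries seen in the subunits, an order that 2.53% of all genes had, so a count of 0 is near the background. None of the 8 genes of the COP9 signalosome was called, and their median relative to the control mean was -0.03 in RNA2 replicate 1. Of the 13 eIF3 genes, 2 rose in RNA1 heads (eIF3h and eIF3l), 3 in RNA2 heads (eIF3m with these) and 5 over both knockdowns (eIF3g1 and eIF3k as well), with a median of log2 0.24 in RNA1 heads and 0.23 in RNA2 heads relative to control heads. Of the 8 CCT genes, 3 rose in RNA1 heads (CCT1, CCT4 and CCT8), 0 changed in RNA2 heads and 3 rose over both knockdowns. The shares of all genes that rose were 5.01% in RNA1 heads, 1.76% in RNA2 heads and 4.44% over both knockdowns. Relative to the control mean, the eIF3 median was 0.31 in both RNA2 replicate 1, where the subunits were lowest, and RNA1 replicate 3, where they were near the control level.

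Some genes of cuticle chitin had the subunits' order of libraries. The list of 14 tested genes for chitin synthesis and assembly was drawn up after such genes were seen among the 250 others in the same order, so it is a description with no test. Its median relative to the control mean was -0.38, -0.44 and 0.06 in RNA1 replicates 1, 2 and 3, -1.22 and -0.28 in RNA2 replicates 1 and 2, and -0.07, 0.29 and -0.18 in control replicates 1, 2 and 3. The list summed to 1494 to 2201 CPM over the RNA1 libraries and to 795 to 1828 CPM over the RNA2 libraries, against 1935 to 3088 CPM over the control libraries, and none of the 14 was at 0. The chitinase gene Cht5 had 322, 161 and 223 CPM in RNA1 heads and 40.9 and 273 CPM in RNA2 heads, against 263, 594 and 339.9 CPM in control heads. The same order of libraries as in 30 of 31 subunits held for 7 of the 14, against 2.53% of all genes. Because the list was drawn up after genes in that order were seen, this count is no evidence of a link. In RNA1 replicate 1 the chitin median of -0.38 stood against -0.07 for the subunits. Their part in the subunit values was not tested.

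**Figure D5:**
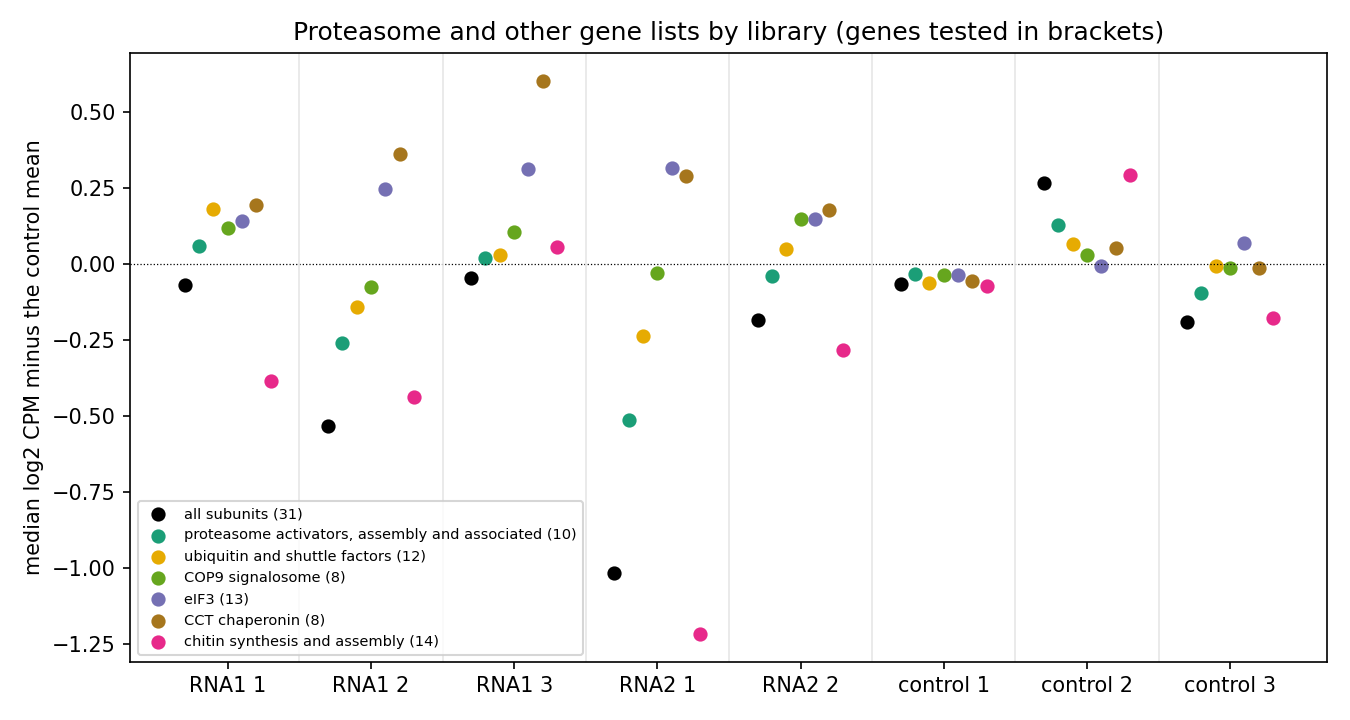
Median log2 CPM minus the control mean (y axis) by library for the subunits and 6 other gene lists, with the number of genes tested in brackets. The subunits (black) and the chitin genes (pink) are lowest in RNA2 replicate 1 and highest in control replicate 2, while eIF3 (violet) is 0.31 in both RNA1 replicate 3 and RNA2 replicate 1.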

How the data were processed

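RNA from whole adult heads was sequenced with a stranded mRNA kit, per the labels' protocols. The deposited table holds raw counts per gene in 8 libraries, which the authors made with bcl2fastq 2.17, cutadapt 1.18, STAR 2.6.1 and SAMtools 1.8 on BDGP6, per the submitters' processing notes; the counting tool, annotation release and strand setting were not given in the sources used here, so reads shared by opposite-strand neighbours or near-identical copies cannot be placed.

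Counts were tested with edgeR 4.0.16 (TMM scaling, filterByExpr with a minimum count of 10, robust quasi-likelihood F test) in one fit of all 8 libraries, with p-values adjusted by Benjamini-Hochberg over 11081 genes and called under 0.05. SE was obtained from each estimate and its F statistic. CPM were computed here from these counts, with 0.1 added before log2. Exon lengths and coordinates are from Ensembl release 115 gene models on BDGP6, and 17550 of 17676 identifiers had a symbol. DESeq2 1.42.0, limma-voom (limma 3.58.1) and the other alternatives of the closing section were also run. The edgeR step was tested on simulated counts. Within groups, libraries differed by more than sampling noise (chi-square per degree of freedom 23.1 to 68.3), so none was treated as one library deposited more than once; this does not show that they come from separate flies.

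Genes given in full are FBXO11, the catalytic subunits, the ATPases, the ubiquitin receptors and the deubiquitinase Rpn11. The highest and lowest estimates in core, base and lid in each comparison are given in full as well. Of other lists, most called genes are named. For the fat body, digestive tract and ovary markers, and for hemocyte markers in RNA2 heads, only counts are given. Prosalpha7, Uch-L5, Usp14, Sem1, Pomp, REG, PI31, cnc, Ubi-p63E and Cht5 were chosen after their values were seen. The members and lists were chosen with earlier results of these data known, and the chitin list after values were seen. Of the listed genes 3 had no match and were not analysed here (PA200, TER94 and nos).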

Additional observations from a re-analysis of the deposited data

How the results depend on the processing

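The subunit medians stayed below 0 relative to control heads under every alternative tried, and the call of no subunit held in RNA1 heads under all of them. Limits: RNA2 has 2 libraries, which differ in genotype label and in every subunit, replicates may be technical, and Prosalpha1 has no value. DESeq2 called 3 subunits in RNA2 heads. Over all genes, DESeq2 called 910 and the replicate block 214 in RNA2 heads (419 as reported), and in RNA2 relative to RNA1 heads DESeq2 called 147, the replicate block 17 and the stricter filter 14 (31 as reported). Replicate numbers did not pair the libraries (r between same-numbered libraries -0.231 to 0.164), so the replicate block is given only here; it called 0 subunits in each comparison, and 773 genes in RNA1 heads and 761 over both knockdowns. Prosbeta2 in RNA1 heads was 0.0084 when scaled by library totals; the cause was not tested. The other 960 values of single subunits under these alternatives kept their sign.

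Leaving out each library in turn, subunits called ranged 0 to 8 in RNA2 heads and 0 to 14 over both knockdowns, and were 0 except without RNA2 replicate 2. Genes called ranged 476 to 1189 in RNA1 heads, 115 to 561 in RNA2 heads, 443 to 1229 over both and 17 to 40 in RNA2 relative to RNA1 heads. The lowest counts were those without control replicate 2 (RNA1 heads, and both) and without RNA2 replicate 1 (the other two comparisons). Log2 medians in RNA2 relative to control heads ranged -1.04 to -0.20 (all subunits), -0.93 to -0.19 (core), -1.08 to -0.20 (base) and -1.19 to -0.20 (lid). Relative to RNA1 heads they ranged -0.82 to 0.022, -0.72 to -0.041, -0.83 to 0.029 and -1.01 to 0.058 in the same order. Some subunits changed sign, with these log2 ranges. In RNA1 heads they were Prosalpha5 -0.21 to 0.0080, Prosbeta2 -0.19 to 0.13, Prosbeta3 -0.21 to 0.0096, Prosbeta4 -0.19 to 0.039 and Rpn5 -0.29 to 0.053. In RNA2 heads they were Prosbeta3 -0.84 to 0.013 and Rpn6 -1.21 to 0.012. In RNA2 relative to RNA1 heads they were Prosalpha2 -0.67 to 0.057, Prosbeta3 -0.72 to 0.13, Prosbeta6 -0.69 to 0.044, Rpt2 -0.91 to 0.094, Rpt4 -0.85 to 0.022, Rpt6 -0.76 to 0.11, Rpn1 -0.92 to 0.18, Rpn2 -0.95 to 0.10, Rpn10 -0.78 to 0.036, Rpn3 -1.04 to 0.23, Rpn5 -1.0004 to 0.023, Rpn6 -1.03 to 0.19, Rpn7 -0.92 to 0.072, Rpn9 -1.18 to 0.10, Rpn11 -1.03 to 0.044 and Rpn12 -0.82 to 0.032. A lone RNA2 library is assumed to vary like the other groups.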

Other observations

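Among the 250 other genes with the subunits' order of libraries (RNA2 replicate 1 lowest, RNA1 replicate 2 next, control replicate 2 highest) were enzymes that act before and after the proteasome, picked here after their values were seen. Ube4B, which extends ubiquitin chains, had 435, 231 and 307 CPM in RNA1 heads and 157 and 392 CPM in RNA2 heads, against 377, 559 and 339.8 CPM in control heads. Ubr1, the ligase that reads destabilising protein ends, had 374, 342 and 368 CPM in RNA1 heads and 314 and 405 CPM in RNA2 heads, against 422, 456 and 391 CPM in control heads. TppII, a peptidase that trims peptides released by the proteasome, had 265, 184 and 245 CPM in RNA1 heads and 132 and 235 CPM in RNA2 heads, against 250.1, 328 and 227 CPM in control heads. For Ube4B and TppII the RNA1 libraries overlapped the controls, and for Ubr1 all 3 were below all controls. Uba1, the ubiquitin-activating enzyme that feeds the whole pathway, had the same order over a narrower range, with 303, 283 and 307 CPM in RNA1 heads and 282 and 311 CPM in RNA2 heads, against 290.1, 312 and 297 CPM in control heads. Its order rests on near-equal values at both ends. RNA2 replicate 1 was level with RNA1 replicate 2, and RNA2 replicate 2 with control replicate 2. No test is given for these 4 genes, since they were chosen for their order. Of the 12 tested ubiquitin and shuttle factor genes, only 2 had this order, against 2.53% of all genes, so most of that list did not.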
